A study of Mus musculus with 6 samples.

Results

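The genes described here are the 5 subunits of NF-κB, Nfkb1, Nfkb2, Rel, Rela and Relb, together with 5 inhibitors or IκB-family regulators of the pathway, Nfkbia, Nfkbib, Nfkbie, Nfkbiz and Tnfaip3. The rule names them by gene symbol and uses no measured value, although it was set with earlier results of these data known. All 10 were found, each as 1 of the 24062 genes in the count tables. RNA sequencing gave their read counts in RAW264.7, an established line of mouse macrophages, with 1 library for each of 6 conditions. M0 macrophages received no polarizing agent. M1 macrophages were treated with 100 ng/mL LPS plus 20 ng/mL IFN-γ and M2 macrophages with 20 ng/mL IL-4, both over 24 h. These doses are those of the study's methods, and a figure caption of the study gives 10 ng/mL for IFN-γ and for IL-4. RM0, RM1 and RM2 were M0, M1 and M2 macrophages given 10 Gy of gamma radiation and kept for a further 24 h. Whether the non-irradiated cells were also kept for that time is not given in the sources used here, so irradiation and time in culture cannot be told apart. All conditions share the 1 cell line, the tissue field of the labels reads bone marrow, and each library was made from pooled RNA of 5 wells. The libraries therefore carry no measure of the spread between cultures, and a change in cell number and a change in RNA per cell cannot be told apart.

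NF-κB is a family of dimeric transcription factors held in the cytoplasm of resting cells by inhibitor proteins of the IκB family. Toll-like receptors, which sense LPS, and cytokine receptors activate an IκB kinase that marks these inhibitors for degradation, and the freed dimers enter the nucleus and bind κB sites. Among the genes switched on in macrophages are those of the inhibitors themselves, above all Nfkbia and Tnfaip3, so that the pathway limits its own activity.

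Promoter sequence was taken from RefSeq on build GRCm38.p6, as windows from 250 bases before to 50 bases after an annotated start, and 7 of the 10 genes had at least 1 window. Nfkb1, Relb and Nfkbiz had none. The κB consensus, 10 bases read on both strands, was found in the windows of 5 of the 7 genes and in 9.55% of all 27025 genes with a window. The 5 were Nfkb2, Rel, Nfkbia, Nfkbie and Tnfaip3, and no match lay in the windows of Rela or Nfkbib. The stretches below are shown because they hold these matches. They run 5′ to 3′ on the strand of the gene, and capitals mark the bases that match the consensus on either strand, overlapping matches being joined.
Nfkbia, the 250 bases before the start, chr12:55492648-55492897, minus strand: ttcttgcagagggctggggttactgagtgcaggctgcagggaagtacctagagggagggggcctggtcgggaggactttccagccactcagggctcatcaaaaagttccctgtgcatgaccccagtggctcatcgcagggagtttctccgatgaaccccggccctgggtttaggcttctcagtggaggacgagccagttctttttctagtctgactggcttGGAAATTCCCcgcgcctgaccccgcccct
Nfkb2, upstream match nearer the first start, chr19:46304717-46304744, plus strand: gggccgaaaGGGGCTTTCCcggctggag
Nfkb2, overlapping matches farther upstream, chr19:46304689-46304717, plus strand: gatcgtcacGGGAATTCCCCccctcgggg
Nfkb2, match between its other starts, chr19:46305696-46305723, plus strand: ggtattttcGGGACTTTCCtaagcagca
Rel, chr11:23771042-23771070, minus strand: gtaagcagcGGGAAATCCCCccccctccc
Tnfaip3, match nearer the start, chr10:19015404-19015431, minus strand: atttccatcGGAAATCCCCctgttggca
Tnfaip3, match farther upstream, chr10:19015517-19015544, minus strand: actcacgcgGGGACACCCCggggcggga
Nfkbie, chr17:45555585-45555612, plus strand: cagcaaacaGGGGGATTCCggaggggcg

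Counted from the start site, with -1 the base before it, the Nfkbia match lay at -29 to -20, the nearer Nfkb2 match at -11 to -2 and the nearer Tnfaip3 match at -12 to -3. The matches of Rel at -92 to -82 and Nfkbie at -106 to -97 lay farther out. A further Nfkb2 match, at -236 to -227 from its second start, is not shown. A match describes the letters only, and binding was not measured.

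The authors deposited raw counts, and the libraries held between 17894937 and 18870516 counted reads. Levels in CPM are counts of a gene relative to the scaled library total. Scaling used the TMM method of edgeR, which evens out composition between libraries. Numbers of reads are unscaled, and the scaled totals of M0 and M1 were 19834283 and 14785772. A change between 2 libraries is given as a log2 fold change with an exact 95% interval that covers counting error only. A gene was called when it differed at least 2-fold with at least 10 reads in 1 of the libraries. No p-value is given between 2 single libraries. Of 8 macrophage markers, 7 were in the tables, and 6 of these, among them Cd68, Itgam, Spi1 and Csf1r, had at least 10 reads in every library. Mertk had 3 to 8 reads.

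**Figure D1:**
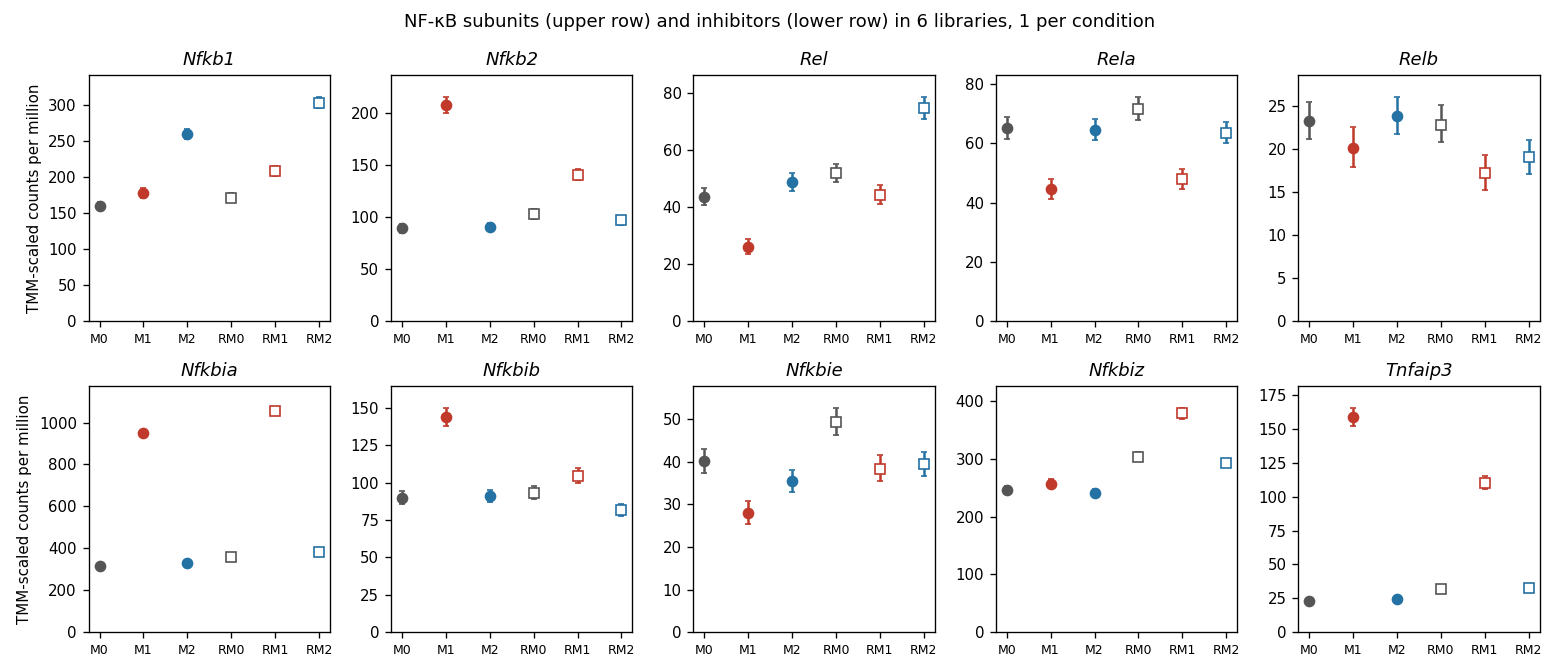
Level of each gene in the 6 libraries, in TMM-scaled CPM on linear axes that start at 0. Filled circles are non-irradiated and open squares irradiated libraries, grey for M0, red for M1 and blue for M2, and bars are 95% counting intervals, some smaller than the symbols. Nfkbia and Tnfaip3 stand highest in M1 and RM1, Nfkb2 and Nfkbib highest in M1, and Nfkb1 highest in M2 and RM2.

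All 10 genes were expressed in every library, with 286 to 17571 reads. Between genes, levels can be compared only per length, here per kilobase (kb) of the longest annotated transcript. On that scale Nfkbia, which encodes IκBα, was the most abundant in all 6 libraries, from 199 CPM per kb in M0 to 668 in RM1. Its range did not overlap that of Nfkbiz, the next by median, at 58.4 to 92.0 CPM per kb. The tables list coordinates for Nfkbia that cover 30.2% of the annotated gene, and which part of it was counted is not known, so its place in this order depends on the length used.

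Among the subunits, Nfkb1, encoding the precursor of p50, had the highest level per kb in 5 of the 6 libraries. In M1 alone Nfkb2, encoding the precursor of p52, stood above it, at 53.9 against 42.9 CPM per kb. Rela, the main activating subunit in the classical pathway, lay at 16.4 to 26.4 CPM per kb. Relb and Rel, which encode activating subunits of the alternative and classical pathways, were lower, at 5.24 to 7.26 and 3.51 to 10.0 CPM per kb, and their ranges overlapped. Tnfaip3, encoding the ubiquitin-editing enzyme A20, had the lowest level of all 10 genes in M0, M2, RM0 and RM2 and the sixth highest in M1 and RM1. Of the 9 pairs of neighbours in the order by median level, 3 had ranges that did not overlap, namely Nfkbia over Nfkbiz, Rela over Nfkbie and Nfkbie over Relb.

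The first question the design poses is how M1 polarization changed these genes. Tnfaip3, Nfkbia and Nfkb2 were at least 2-fold higher in M1 than in M0 and 0 of the 10 were at least 2-fold lower. Among all 11778 genes measured in this comparison, 9.37% were called higher, 13.3% lower and 22.7% in either direction. The median log2 fold change over the 10 genes was 0.11, against -0.03 over all genes. In irradiated cells, Tnfaip3 and Nfkbia were again called higher in RM1 against RM0, where 6.16% of genes were called higher, 7.87% lower and 14% in either direction. The second comparison shares no library with the first.

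Tnfaip3 lies at chr10:19000910-19015410 on the minus strand, in the coordinates of the tables, build GRCm38. It had 22.8 CPM in M0, 24.7 in M2, 31.6 in RM0 and 32.3 in RM2, against 159 in M1 and 110 in RM1. The libraries exposed to LPS and IFN-γ were thus clearly apart from the other 4. It was 6.95-fold higher in M1 than in M0, a log2 fold change of 2.80 (95% interval 2.66 to 2.95). In RM1 against RM0 it was 3.49-fold higher, a log2 fold change of 1.80 (1.67 to 1.94).

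Nfkbia, listed at chr12:55491670-55492647 on the minus strand, had 315 CPM in M0, 328 in M2, 357 in RM0 and 385 in RM2, against 949 in M1 and 1054 in RM1. Unlike Tnfaip3, it reached a similar height in both M1 libraries. Its log2 fold change was 1.59 (1.55 to 1.63) without irradiation and 1.56 (1.52 to 1.60) with it, which are 3.01-fold and 2.95-fold higher.

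Nfkb2, at chr19:46304737-46312090 on the plus strand, had 89.3 CPM in M0 and 90.4 in M2, and 103 in RM0 and 96.8 in RM2. It stood at 207 CPM in M1 and 141 in RM1, so that both M1 libraries were above the other 4 and M1 was above RM1. Its log2 fold change was 1.22 (1.13 to 1.30) in M1 against M0 and 0.45 (0.37 to 0.54) in RM1 against RM0. Nfkb2 overlaps Psd in the annotation and Nfkbib overlaps Sirt2, both of which are in the tables, and whether counting used the strand is not given in the sources used here. Reads from the overlapping parts cannot be told apart.

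Rela, at chr19:5637490-5648130 on the plus strand, and Rel, at chr11:23741729-23770970 on the minus strand, were lower in M1 than in M0. Rela had 65.1, 64.7, 71.8 and 63.5 CPM in M0, M2, RM0 and RM2, against 44.6 in M1 and 48.0 in RM1, and these groups did not overlap. It was 1.46-fold lower in M1 than in M0 and 1.49-fold lower in RM1 than in RM0. Rel had 26.2 CPM in M1 and 44.4 in RM1, against 43.7, 48.9, 52.0 and 74.7 in M0, M2, RM0 and RM2, so RM1 was level with M0. Its log2 fold change was -0.74 (-0.91 to -0.56) in M1 against M0 and -0.23 (-0.37 to -0.09) in RM1 against RM0. For Relb the values were -0.21 (-0.43 to 0.00) and -0.41 (-0.63 to -0.19).

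The 3 remaining inhibitors were not called in either M1 comparison. Nfkbib, encoding IκBβ, had 144 CPM in M1 and 105 in RM1, against 90.0, 91.0, 93.2 and 81.9 in M0, M2, RM0 and RM2. It was highest in M1. RM1 came next with TMM, but scaling by totals turned the log2 fold change of RM1 against RM0 from 0.17 to -0.08. Nfkbie, encoding IκBε, had 27.9 CPM in M1 and 38.4 in RM1, against 40.2, 35.4, 49.4 and 39.5 in M0, M2, RM0 and RM2, with M1 the lowest. Nfkbiz, encoding the nuclear protein IκBζ that acts with NF-κB on chromatin, had 246, 257 and 240 CPM in M0, M1 and M2. It had 303 CPM in RM0, 379 in RM1 and 293 in RM2, so each irradiated library was above each non-irradiated library.

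**Figure D2:**
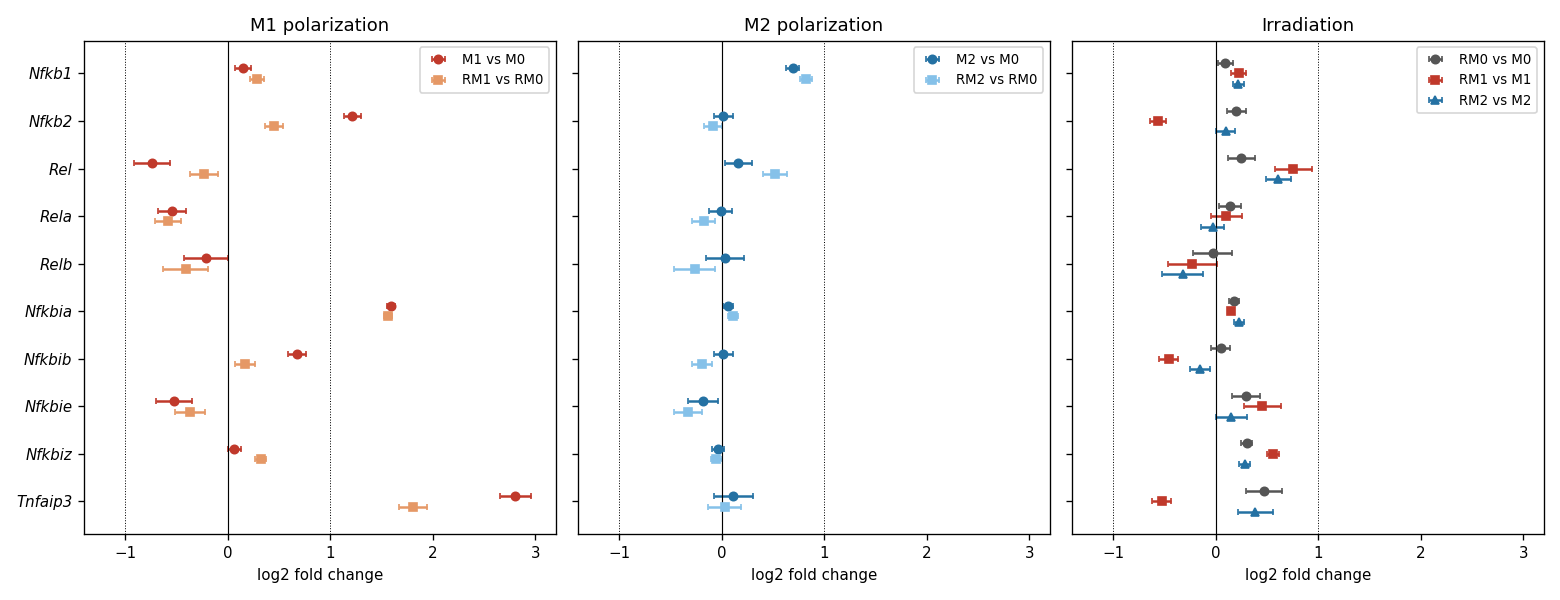
Log2 fold change of each gene in the 7 comparisons of 2 libraries, with 95% counting intervals and dotted lines at the 2-fold limits. On the left, Tnfaip3 and Nfkbia lie beyond 1 with and without irradiation and Nfkb2 in M1 against M0 alone, in the middle Nfkb1 lies at 0.69 and 0.82, and on the right no gene reaches either limit.

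A test over all 6 libraries was run with edgeR's quasi-likelihood method on polarization and irradiation as separate terms. It takes the irradiated and non-irradiated library of a state as stand-ins for replicates, assumes that irradiation acts alike in all states, and has 2 residual degrees of freedom. For the M1 term, 4 of the 10 genes passed as higher and 3 as lower at an adjusted p under 0.05, where 47.6% of the 11574 genes tested passed, 23.3% as higher and 24.3% as lower. A large share of all genes thus passed. The genes that rose were Tnfaip3 at a log2 fold change of 2.32 ± 0.22 (SE, adjusted p = 1.82e-05), Nfkbia at 1.58 ± 0.13 (adjusted p = 9.37e-06), Nfkb2 at 0.85 ± 0.17 (adjusted p = 0.00229) and Nfkbib at 0.42 ± 0.14 (adjusted p = 0.0273). The genes that fell were Rela at -0.56 ± 0.12 (adjusted p = 0.00354), Rel at -0.48 ± 0.14 (adjusted p = 0.0187) and Nfkbie at -0.44 ± 0.13 (adjusted p = 0.0162). Nfkb1 at 0.22 ± 0.12, Relb at -0.31 ± 0.14 and Nfkbiz at 0.19 ± 0.13 did not pass. Of the 5 genes with a κB consensus match, Nfkb2, Nfkbia and Tnfaip3 rose and Rel and Nfkbie fell, while of the 2 without one Nfkbib rose and Rela fell.

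Tnfaip3, Nfkbia, Nfkb2 and Rela passed the M1 term under all 11 other settings tried. Rel passed under 9, its adjusted p reaching 0.24 without M0 and 0.0528 without M1. Nfkbie passed under 7 and Nfkbib under 6 of the 11, with adjusted p up to 0.0515 and 0.629. Nfkbib missed the threshold without M0, M1, M2 or RM2 and with scaling by library totals, where its log2 fold change was 0.08, and Nfkbie missed it narrowly without M0, M1 or RM0 and with DESeq2. Scaling by totals shifted the median log2 fold change of all genes in M1 against M0 by -0.44. Under it Nfkb2 was no longer called, at 0.77, Rel was called lower, at -1.18, and Nfkb1 and Nfkbiz turned from 0.15 and 0.06 to -0.29 and -0.38. The M1 term then split 3 higher to 4 lower among the 10 genes and 1091 higher to 4750 lower among all genes, against 2692 to 2817 with TMM.

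Ratios of reads of 2 genes within 1 library do not depend on that scaling. There were 4.83 Nfkbia reads per Rela read in M0, 5.08 in M2, 4.97 in RM0 and 6.06 in RM2, against 21.3 in M1 (95% interval 19.7 to 23.0) and 22.0 in RM1 (20.5 to 23.6). Transcripts of the inhibitor thus stood higher relative to those of the subunit it binds in both M1 libraries, by a similar amount. Nfkb2 reads per Rela read were 1.37 in M0, 1.40 in M2, 1.43 in RM0 and 1.52 in RM2, against 4.65 in M1 and 2.93 in RM1. Tnfaip3 reads per Rela read were 0.35 in M0, 0.382 in M2, 0.44 in RM0 and 0.508 in RM2, against 3.56 in M1 and 2.30 in RM1. For both genes the counting intervals of M1 and RM1 did not overlap. Reads of Nfkb1 per Rela read were 2.46 in M0 and 2.39 in RM0, and 3.99, 4.01, 4.34 and 4.77 in M1, M2, RM1 and RM2. All 4 polarized libraries were above both unpolarized ones.

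**Figure D3:**
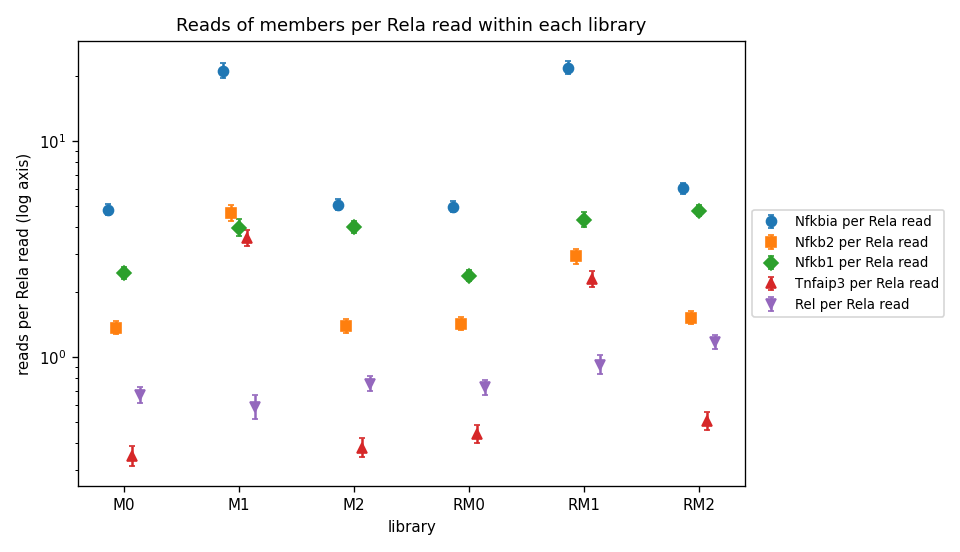
Reads of 5 genes per Rela read within each library, on a log axis, with exact 95% counting intervals. Nfkbia lies near 5 in 3 libraries, at 6.06 in RM2 and at 21.3 and 22.0 in M1 and RM1, Tnfaip3 and Nfkb2 are higher in M1 than in RM1, and Rel is highest in RM2.

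Cell type markers were checked beside the M1 result. The 7 macrophage markers summed to 17227 and 19958 CPM in M1 and RM1, against 22828 to 33097 CPM in the other 4 libraries. Most of this sum was Lyz2 in every library, so it mainly follows that gene. In unscaled reads, Lyz2 went from 469530 in M0 to 199329 in M1 and Csf1r from 13259 to 4855, while Fcgr1 went from 978 to 5200. Cd68 went from 14910 to 15298, Itgam from 28276 to 24525 and Spi1 from 5837 to 5511. Relative to the scaled totals, these last 3 and Fcgr1 were higher in M1 than in M0. No read fell on the 5 epithelial markers, and T and B cell markers had at most 4 reads in any library. The summed level of 4 neutrophil markers in the tables was 141 to 340 CPM in M0, M2, RM0 and RM2 and 2197 and 3073 CPM in M1 and RM1, nearly all of it S100a8, while Elane and Mpo had 0 to 3 reads. The 6 fibroblast markers summed to 6.45 to 10.0 CPM in the former and to 43.6 and 45.8 CPM in M1 and RM1, chiefly through Dcn, and Col1a2 and Col3a1 were at 0 in every library. Their part in the result was not tested.

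The next question is whether M2 polarization with IL-4 changed the same genes. No gene of the 10 was called in M2 against M0, where 1.44% of all genes were, or in RM2 against RM0, where 2.61% were. Nfkb1, at chr3:135584655-135691547 on the minus strand, came nearest. Its levels in M2 and RM2 were 260 and 303 CPM, against 160 and 171 in the M0 pair and 178 and 208 in the M1 pair, so the M2 libraries held its highest levels. Its log2 fold change was 0.69 (0.63 to 0.76) in M2 against M0 and 0.82 (0.76 to 0.88) in RM2 against RM0, which are 1.62-fold and 1.77-fold higher.

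In the additive test Nfkb1 was the 1 gene of the 10 that passed the M2 term, at 0.76 ± 0.12 (SE, adjusted p = 0.0372), where 0.19% of all genes passed. The call held under 6 of 11 other settings, with adjusted p from 8.1e-13 to 0.908. It was lost without M2, RM0 or RM2, where adjusted p was 0.251, 0.259 and 0.908, with scaling by totals (0.0811) and with a minimum of 50 reads (0.0516), while the log2 fold change stayed between 0.70 and 0.82. Rel had a log2 fold change of 0.34 ± 0.14 for this term and did not pass (adjusted p = 0.472). It was 0.16 (0.03 to 0.30) in M2 against M0 and 0.52 (0.41 to 0.64) in RM2 against RM0. Of the inhibitors, Nfkbia and Tnfaip3 lay within 0.12 of 0 on the log2 scale in both M2 comparisons, and Nfkbie stood at -0.18 (-0.33 to -0.03) and -0.32 (-0.46 to -0.19).

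The last question is what irradiation changed within each state. No gene of the 10 was called in RM0 against M0, RM1 against M1 or RM2 against M2, where 1.54%, 5.34% and 1.97% of all genes were called. In the additive test 0 of the 10 passed the irradiation term by edgeR's quasi-likelihood method, where 0.475% of all genes passed. At an unadjusted p under 0.05 there were 3, Rel, Nfkbie and Nfkbiz, all higher, and DESeq2 called 1, Rel. The share of all genes at that unadjusted limit is not given here, so the 3 have no background beside them. Rel had a log2 fold change of 0.54 ± 0.12 (SE, adjusted p = 0.0772). Its adjusted p was 0.0414 with DESeq2, 0.0448 by edgeR without a filter on counts and 0.269 by edgeR with scaling by totals. The log2 fold change was 0.68 without M0 or RM0 and 0.44 without M1 or RM1. Leaving out either library of a state takes that state out of this term, so the fits of a pair are not separate checks.

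Rel was higher after irradiation in 3 of 3 states. Its log2 fold changes were 0.25 (0.12 to 0.38) in M0, 0.76 (0.58 to 0.94) in M1 and 0.61 (0.50 to 0.73) in M2 macrophages. Nfkbiz was also higher in each, by 0.30 (0.25 to 0.36), 0.56 (0.50 to 0.62) and 0.28 (0.23 to 0.34), and so was Nfkbia, by 0.18, 0.15 and 0.23. Nfkb1 was higher by 0.10, 0.23 and 0.22, and Nfkbie by 0.30, 0.46 and 0.15. The counting interval excluded 0 in every one of these comparisons. Rela lay between -0.03 and 0.14, and Relb stood at -0.03 (-0.22 to 0.16), -0.23 (-0.47 to 0.01) and -0.32 (-0.52 to -0.13).

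In M1 macrophages some genes went the other way. This comparison shares the M1 library with M1 against M0, so the values of the 2 comparisons are not independent. Tnfaip3 was higher after irradiation in M0 at 0.47 (0.29 to 0.65) and in M2 at 0.38 (0.21 to 0.56), and lower in M1 at -0.53 (-0.62 to -0.44). Nfkb2 stood at 0.20 (0.11 to 0.30), 0.10 (0.01 to 0.19) and -0.56 (-0.64 to -0.48) in the same order. Nfkbib was lower in M1 at -0.46 (-0.55 to -0.37) and in M2 at -0.15 (-0.25 to -0.06), and stood at 0.05 (-0.04 to 0.15) in M0. The change in M1 less the change in M0 was -0.996 for Tnfaip3 (95% counting interval -1.19 to -0.80), -0.76 for Nfkb2 (-0.88 to -0.64), -0.51 for Nfkbib (-0.64 to -0.38), 0.51 for Rel (0.29 to 0.73) and -0.03 for Nfkbia (-0.09 to 0.03). These intervals hold no spread between cultures, and a test of the differences was not possible, since an interaction term leaves no residual degrees of freedom.

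Without M1, the log2 fold changes of Rel, Nfkbiz and Tnfaip3 in the irradiation term by edgeR were 0.44, 0.29 and 0.43. Leaving out RM1 gave the same values. Either fit takes this term from the M0 and M2 pairs alone, so the second is not a separate check. Transcripts of Rel and Nfkb1 have a GC content of 42.5% and 44.9%, and those of Nfkb2, Rela and Nfkbib of 58.8% to 59.4%. With the trend of the fold change over GC content removed, an alternative added after the data had been seen, the change in M1 macrophages was 0.55 for Rel, -0.34 for Nfkb2, -0.25 for Nfkbib, 0.33 for Rela and -0.60 for Tnfaip3. Nfkb1 went from 0.23 to 0.09 there, and no gene of the 10 changed direction in RM1 against M1. In RM2 against RM0, removing the trend turned Nfkb2 from -0.09 to 0.19, Rela from -0.18 to 0.10 and Nfkbib from -0.19 to 0.07. It also turned Tnfaip3 from 0.03 to -0.07, and it lowered Rel from 0.52 to 0.25. In RM2 against M2 it turned Rela from -0.03 to 0.10. Values near 0 turned as well, Rela in M2 against M0 from -0.01 to 0.07 and Nfkbib in RM0 against M0 from 0.05 to -0.009.

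The other genes of the pathway were taken from lists by role, and their counts refer to the M1 term of the additive test, which 23.3% of all genes passed as higher and 24.3% as lower. Among 28 target genes, products of which include chemokines, cytokines and enzymes of inflammation, 24 were tested, 16 passed as higher and 0 as lower, with a median log2 fold change of 1.09 against -0.02 over all genes. The largest changes in M1 against M0 were those of Saa3, an acute-phase protein, from 136 to 6345 reads, Irf1, an interferon-induced transcription factor, from 419 to 8628, and Ccl5, a chemokine, from 718 to 9987. In RM1 Irf1 had 1710 reads, a log2 fold change of -2.51 (-2.58 to -2.43) against M1. Cxcl10, a chemokine gene driven by interferon, fell from 1278 to 242 reads and stood at -2.57 (-2.78 to -2.37), while Cxcl2, a neutrophil chemokine, was higher at 1.33 (1.30 to 1.36).

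Of 15 receptors, 14 were tested, 4 passed as higher and 3 as lower, shares near those of all genes. Tnfrsf1b, a TNF receptor, went from 6775 reads in M0 to 32447 in M1, and Cd40 from 582 to 2550. Tlr4, the LPS receptor, had 1199 reads in M0 and 219 in M1, a log2 fold change of -2.02 after scaling. It had 711 reads in RM1, where it was 2.87-fold higher than in M1. Of 8 ligands, 6 were tested, and Il1a and Il1b passed as higher and Ltb, encoding lymphotoxin β, as lower. Il1a had 57 reads in M0 and 627 in M1. Tnf had 9468 and 8548 reads, a log2 fold change of 0.28 after scaling, and did not pass.

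Among 22 adaptors and ubiquitin ligases, 20 were tested, with 6 higher and 3 lower, again near the share of all genes, and the sum fell to 5 without RM0. Irak2, a kinase-like adaptor of Toll-like receptors, was 3.88-fold higher in M1 than in M0, and Rnf31, the catalytic subunit of the linear ubiquitin ligase, was 2.34-fold higher. The list called kinases here holds 13 genes, among them Ikbkg, Tab1, Tab2 and Tab3, which are not kinases themselves. Of these 13, 1 passed as higher, Ripk2, and 4 as lower, with Tab3 among the lower. Ikbkb, the catalytic IκB kinase subunit of the classical pathway, was also among the lower. It had 1183 reads in M0 and 552 in M1, a log2 fold change of -0.67 after scaling. Of the 12 genes listed as other ubiquitin-editing inhibitors and their partners, 3 passed as higher, Usp18, Cyld and Rnf11, and 2 as lower, Tnfaip8l2 and Otulin. Usp18 and Tnfaip8l2 are in this list but are not ubiquitin-editing enzymes. Of 6 genes listed as other IκB-like regulators Bcl3 passed as higher and Nkrf, Pdlim2 and Nfkbil1 as lower. Nkrf and Pdlim2 are regulators of the pathway that are not IκB-like themselves. The ubiquitin-editing list went to 6 higher and 3 lower without RM1. The kinases had 3 calls in all without M0 or RM0 and with DESeq2, and the IκB-like regulators had 0 higher and 2 lower without M0, M2 or RM2. Scaling by totals turned the counts of the adaptors to 2 higher and 7 lower, the receptors to 3 and 6, the kinases to 0 and 6, the ubiquitin-editing list to 1 and 2, the ligands to 1 and 1 and the IκB-like regulators to 0 and 3. The calls of Ripk2 and Bcl3 were thus lost. The targets kept 15 higher and had 1 lower.

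**Figure D4:**
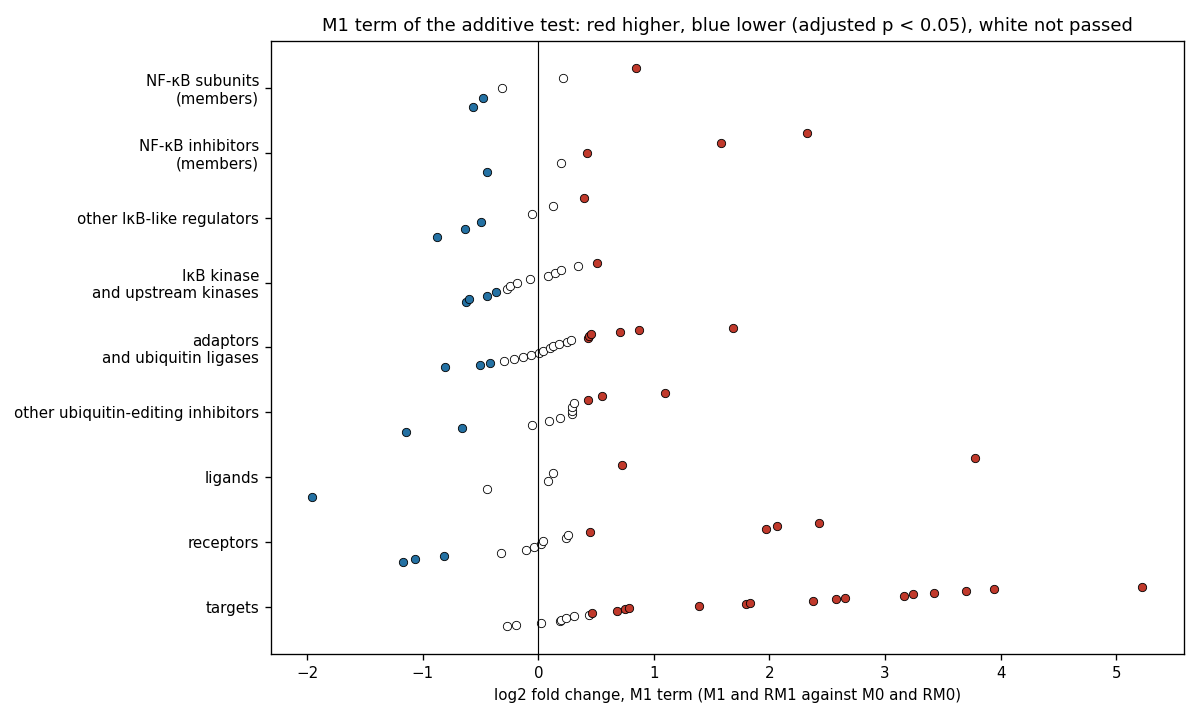
Log2 fold change of each tested gene in the M1 term of the additive edgeR test, by role, with red points for genes that passed as higher, blue for lower and white for those that did not pass. The targets hold 16 red points and no blue one, while the subunits, kinases, adaptors and receptors hold genes on both sides of 0.

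For the M2 term 0 of the 95 tested genes of these 7 lists passed edgeR's quasi-likelihood test, and DESeq2 called 3, Il1b, Ltb and Ripk2. An unadjusted p under 0.05 was reached by 15, but the share of all genes at that limit is not given here. For the irradiation term, Il1b and Ptgs2, encoding the prostaglandin-forming enzyme COX-2, passed as higher and Cxcl10 as lower by edgeR, 3 of 95 beside 0.475% of all genes. Scaling by totals left 0 of the 95, and DESeq2 called Ier3, Il1b and Ptgs2 but not Cxcl10. The ligands had 2 calls without M0, M1, RM0 or RM1. The targets had 7 calls without M0 or RM0 and 9 without M1 or RM1, and 0 were higher without M2 or RM2, where the call of Ptgs2 was lost. Il1b had 2638, 2819 and 1700 reads in M0, M1 and M2 and 4136, 6624 and 2601 in RM0, RM1 and RM2, with an adjusted p of 0.0146. Each irradiated library was above its non-irradiated partner.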

How the data were processed

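Total RNA of RAW264.7 macrophages was sequenced by the authors, and raw counts of reads per RefSeq gene were deposited, 1 library per condition. The submitters' processing notes name Trimmomatic 0.36, HISAT2 2.2.1 and HTSeq 0.11.3 and the build mm10, and the coordinates in the tables are those of GRCm38. Counts were used as deposited, with no column of other samples. Columns of gene annotation were used for identity only.

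Counts were scaled with TMM in edgeR 4.0.16 (R 4.3.3), the factors coming from genes that reached 10 counts in 3 or more libraries. A prior count of 2 entered the log2 fold changes, and intervals at 95% were exact Clopper-Pearson intervals for counting error only. The additive test was edgeR's quasi-likelihood F test with Benjamini-Hochberg adjustment over all 11574 genes, threshold 0.05, and standard errors are the log2 fold change divided by the square root of F. On simulated data with a coefficient of variation of 0.1, it recovered 90% of the 200 genes that were given a log2 change of 1 in the M1 term and 94% in the irradiation term. False calls numbered 4 and 7. The simulated irradiation change was alike in all states, and far fewer genes changed than passed the M1 term here. It therefore does not show how the test behaves on these data. Intervals of differences of changes used the normal approximation to counting error. Alternatives were DESeq2 1.42.0, other scalings, filters and thresholds, an assumed coefficient of variation in edgeR's exact test, and each library left out.

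Gene spans, transcript lengths and GC content came from GENCODE M21. Motifs were searched in RefSeq promoter windows. The 10 genes and the lists were chosen with earlier results of these data known. Named by rule were all 10 genes, up to 3 genes a list with the largest change in M1 against M0 and in RM1 against M1, and the genes most like Tnfaip3 and Nfkbia. Others, such as Tnf, Il1b across all libraries, Ptgs2, Ripk2, Cyld, Rnf11 and the markers singled out, were chosen after their values were seen. Python 3.11.15 with pandas 2.3.3 and scipy 1.17.1 was used for the rest.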

Additional observations from a re-analysis of the deposited data

How the results depend on the processing

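No analysis of paired replicates was possible because each condition had 1 library. The additive test itself sets each irradiated library against the non-irradiated one of its state. With a 1.5-fold limit, 5 of the 10 genes were called in M1 against M0. At that limit 1 each was called in M2 against M0, RM2 against RM0, RM1 against M1 and RM2 against M2. With a 4-fold limit 1 was called in M1 against M0 and 0 in RM1 against RM0. The shares of all genes at the 1.5-fold and 4-fold limits are not given here, so these counts have no background beside them. An exact test with an assumed coefficient of variation of 0.4 called 0 in both M1 comparisons. With each library left out in turn, 4 to 7 of the 10 genes passed the M1 term, 0 to 2 the M2 term and 0 to 3 the irradiation term. Such fits have 1 residual degree of freedom and assume that a lone library varies like the others. In each of them a large share of all genes passed the M1 term as well, as in the test on all libraries. Over all genes, these fits called 18 to 1398 genes in the M2 term and 77 to 695 in the irradiation term. Scaling by totals gave 3 and 3 genes, DESeq2 41 and 115, no count filter 45 and 134 and a minimum of 50 reads 12 and 32, against 22 and 55. Among the 10 genes, totals and the minimum of 50 reads each left 0 in the M2 term, and DESeq2 and no count filter each called 1 in the irradiation term. In the additive test, directions turned only for values that had not passed. With totals the M1 term became -0.13 for Nfkb1 and -0.15 for Nfkbiz, and the M2 term 0.022 for Nfkb2 and 0.017 for Nfkbiz. With a library left out, the M2 term ran from -0.24 to 0.20 for Nfkb2, -0.24 to 0.020 for Relb, -0.26 to 0.10 for Nfkbib, -0.12 to 0.030 for Nfkbiz and -0.19 to 0.39 for Tnfaip3, and the irradiation term from -0.23 to 0.15 for Nfkb2 and -0.10 to 0.43 for Tnfaip3. Between 2 libraries, totals also turned Nfkb1 and Nfkbiz in M1 against M0, to -0.29 and -0.38, and Nfkbib in RM1 against RM0, to -0.08. Values near 0 turned as well, Rela and Nfkbiz in M2 against M0, to 0.050 and 0.027, and Nfkbiz in RM2 against RM0, to 0.006. The cause was not tested. Each of the 10 genes had at least 286 reads in every library, and for Relb, with the fewest, the counting interval reached 0 in M1 against M0. The spread between cultures was not measured.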

Other observations

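Gene patterns most like those of Tnfaip3 and Nfkbia, the 2 genes of the 10 with the widest range over the 6 libraries, were ranked by the root mean square difference of centred log2 CPM among 9402 genes with a mean of at least 100 reads. This is a description over 6 libraries that share 1 cell line, and no test was made. For Tnfaip3 the nearest was Gna13, which encodes a G protein subunit, with 2699, 2961, 3281 and 3261 reads in M0, M2, RM0 and RM2, 12271 in M1 and 10305 in RM1, and a difference of 0.09 (Pearson r = 0.997). Hist1h1c, a linker histone gene, and Enc1 followed at 0.16 and 0.17. For Nfkbia the nearest was Dcbld2, a membrane protein gene, with 405, 450, 489 and 515 reads in M0, M2, RM0 and RM2, 937 in M1 and 1191 in RM1, and a difference of 0.03 (r = 0.999). Pvrl3, which encodes a nectin, and Socs3, an inhibitor of cytokine signalling, followed at 0.07 each.

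Within the inhibitors, the makeup differed between the 2 M1 libraries. There were 6.60 Nfkbia reads per Nfkbib read in M1 (95% interval 6.30 to 6.91) and 10.1 in RM1 (9.59 to 10.6), against 3.50 to 4.70 in the other 4 libraries. Tnfaip3 reads per Nfkbia read were 0.168 in M1 and 0.105 in RM1, against 0.0724 to 0.0886 in the others. Rel reads per Rela read were 0.586 in M1, 0.67 in M0, 0.725 in RM0, 0.755 in M2, 0.925 in RM1 and 1.18 in RM2. RM2 was thus the 1 library with more Rel than Rela reads, but the longest Rel transcript is longer, 7466 against 2716 bases. Per kb, Rela stayed above Rel in RM2, at 23.4 against 10.0 CPM.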
